A study of Mus musculus with 4 samples.

Results

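The 10 genes described here encode products of cytotoxic and type 1 lymphocytes: the granule proteases Gzma, Gzmb and Gzmc, the pore-forming protein Prf1, the granule membrane protein Nkg7, the cytokine Ifng, the chemokines Xcl1 and Ccl5, the death ligand Fasl and the transcription factor Tbx21. They were chosen by symbol, and all 10 of them were found among the 32285 genes in each of the 4 libraries. CD45+ leukocytes, the immune cells of the tissue, were sorted from hindpaws and profiled by droplet single-cell RNA-seq (10x Genomics 3' v3), in which a unique molecular identifier (UMI) marks each captured transcript. The groups were male wild-type mice (WT) and male Lepr db/db mice (DB), which are obese and diabetic because the leptin receptor does not signal, at 12 weeks (12-week-WT and 12-week-DB) and at 21 weeks (21-week-WT and 21-week-DB). Both genotypes were on the C57BLKS/J background, and the WT mice were littermates. Each of the 4 groups had 1 library made from the pooled hindpaw cells of 2 to 3 mice, so differences between groups have no replicate check and were not tested. The ranges in parentheses after a ratio, level or share are exact 95% intervals and reflect counting error alone. Levels are given as CPM, the UMIs of a gene per 1000000 UMIs of the same barcodes. The gene-level counts do not check the db allele, which alters splicing: at 12 weeks Lepr had 28 UMIs in WT against 16 in DB, and at 21 weeks it had 30 against 17. Wherever 4 values follow each other, they are those of WT and DB at 12 weeks and then of WT and DB at 21 weeks.

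Cytotoxic lymphocytes store perforin and granzymes in granules and release them onto a bound target cell, where perforin opens the membrane and granzymes enter and cleave proteins. Natural killer (NK) cells, CD8 T cells and some γδ T cells also secrete interferon-γ, the product of Ifng, which activates macrophages, and they recruit other leukocytes with chemokines. T-bet, the product of Tbx21, is a lineage factor of these type 1 cells, and in skin the dendritic epidermal T cells (DETC) are a resident γδ T population that can kill stressed keratinocytes.

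The sequences just upstream of the killing genes are shown because Gzma, Gzmb, Gzmc and Prf1 all had lower levels in the NK-like cells of 21-week-DB than of 21-week-WT, as described further on. Each is the 250 bases before the annotated transcript start in RefSeq (GRCm38.p6), 5′ to 3′ on the strand of the gene. Capitals mark matches on either strand to TCACAC, the core letters that T-box factors such as T-bet and Eomes bind, or to TGTGGT, the core letters of RUNX factors.

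Gzma, chr13:113100982-113101231, minus strand: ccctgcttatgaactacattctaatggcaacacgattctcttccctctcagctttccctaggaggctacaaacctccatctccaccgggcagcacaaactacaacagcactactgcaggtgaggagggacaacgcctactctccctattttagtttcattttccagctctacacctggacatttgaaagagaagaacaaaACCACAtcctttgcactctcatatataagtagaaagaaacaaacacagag

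Gzmb, chr14:56262335-56262584, minus strand: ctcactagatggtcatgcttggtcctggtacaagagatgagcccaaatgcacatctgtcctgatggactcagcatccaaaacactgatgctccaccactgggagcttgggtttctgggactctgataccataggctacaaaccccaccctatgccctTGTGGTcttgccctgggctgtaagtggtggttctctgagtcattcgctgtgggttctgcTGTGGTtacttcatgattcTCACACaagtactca

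Gzmc, chr14:56234658-56234907, minus strand: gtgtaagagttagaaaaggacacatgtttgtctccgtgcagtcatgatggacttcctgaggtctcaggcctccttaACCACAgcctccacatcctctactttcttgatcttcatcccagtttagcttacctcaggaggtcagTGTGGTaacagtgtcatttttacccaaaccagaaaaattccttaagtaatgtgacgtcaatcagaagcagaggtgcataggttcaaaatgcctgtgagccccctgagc

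Prf1, chr10:61297586-61297835, plus strand: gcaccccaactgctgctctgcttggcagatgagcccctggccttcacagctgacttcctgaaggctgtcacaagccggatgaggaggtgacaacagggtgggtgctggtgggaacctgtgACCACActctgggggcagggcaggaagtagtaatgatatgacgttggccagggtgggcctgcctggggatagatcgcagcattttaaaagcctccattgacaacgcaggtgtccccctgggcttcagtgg

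All 4 windows held RUNX letters, with 1 match upstream of Gzma, 2 of Gzmb, 2 of Gzmc and 1 of Prf1. Only the Gzmb window held T-box letters, 15 to 10 bases before the start. Over the 32851 mouse promoters of the same table, 14.05% held the RUNX letters and 12.29% the T-box letters within windows of this length. Of the other members, the Nkg7 and Xcl1 windows held 1 match to each motif, and the Ifng, Fasl and Tbx21 windows held neither. The letters of AP-1 sites (TGANTCA, in 6.749% of promoters) were found in the Gzmb window only, and those of STAT sites (TTCNNNGAA, in 7.02%) upstream of Nkg7 and Ifng. These matches describe the letters and no binding was measured. The table has no entry for Ccl5.

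All 10 are protein-coding genes, and their positions follow GRCm38 (mm10). Gzma lies on chr13:113093825-113100981, minus strand. Gzmb (chr14:56258838-56262260) and Gzmc (chr14:56231441-56234656), both on the minus strand, lie near each other among closely related granzyme genes, so reads shared with a near-identical copy could be lost or split and the level of Gzmc is uncertain. Prf1 (chr10:61297833-61304680) and Ifng (chr10:118441046-118445892), both on the plus strand, share a chromosome, as do Fasl (chr1:161780689-161788495) and Xcl1 (chr1:164931644-164935527), both on the minus strand. Xcl1 overlaps the antisense gene Gm20743, and the 10x 3' chemistry keeps strand. Nkg7 lies on chr7:43437073-43438249, plus strand, and Ccl5 (chr11:83525778-83530518) and Tbx21 (chr11:97098071-97115331) lie on the minus strand of chromosome 11.

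The libraries held 5998 to 9124 barcodes and 47851794 to 69626521 UMIs. Filtering on 200 or more genes and no more than 10% mitochondrial UMIs left 5271, 6552, 7270 and 8707 barcodes, and lymphoid barcodes were named by marker genes, none of which is 1 of the 10 members. The gates named 1121, 2120, 2099 and 3594 lymphoid barcodes, which was 21.3%, 32.4%, 28.9% and 41.3% of those kept. They were split into NK-like, CD8 αβ T-like, Foxp3+ αβ T-like, other αβ T-like, dermal γδ T-like, DETC-like and type 2 innate lymphoid (ILC2)-like barcodes. The 2 libraries of 21 weeks had 154 barcodes in common and the 2 of 12 weeks had 41, against 6 to 21 for the other pairs. No NK-like or CD8 αβ T-like barcode was shared, but 57 of the ILC2-like barcodes of 21-week-WT were, so ILC2-like values are less certain. The headers name Cell Ranger 5.0.0 for the 12-week files and 6.0.0 for the 21-week files, so software version cannot be told apart from age.

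NK-like barcodes numbered 102, 92, 121 and 86, with a median of 5702.5, 5607.5, 5024 and 6328 UMIs, and made up 9.10%, 4.34%, 5.76% and 2.39% of the gated lymphoid barcodes. Of the 6 NK markers, Ncr1, the receptor NKp46, had 271, 244, 309 and 257 CPM, and Txk, a kinase of NK and T cells, had 831, 822, 656 and 580. These markers were at similar levels in the 4 libraries. Eomes, the T-box factor of circulating NK cells, had 309, 127, 348 and 43.9 CPM, and the receptor Klre1 had 122, 38.4, 227 and 30.4. Both were lower in each DB library than in the WT library of its age. Klrb1c had 164, 71.6, 133 and 89.5, and Klra8 had 0 UMIs in all 4. The gate limits the Cd3 chains, which define T cells, to 1 UMI a barcode, and they were at 15.6, 14.0, 13 and 8.45 CPM. The T cell receptor constant genes, which the NK gate does not use, had 54.6, 26.2, 43.5 and 30.4 CPM and were found in 20.6%, 10.9%, 19.8% and 16.3% of NK-like barcodes. Transcripts of other cell types were present there too: the 5 macrophage genes had 201, 166, 85.5 and 69.3 CPM and the 3 MHC class II genes had 597, 913, 904 and 323, with every gene of both lists detected in all 4 libraries. Mast cell genes had 32.7, 22.7, 49.3 and 30.4 CPM and neutrophil genes 32.7, 21, 59.4 and 5.07, while the B cell, stromal and keratinocyte lists were each at or below 10.1 CPM. The part of these transcripts in the results was not tested.

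NK-like cells had the highest mean level of 9 of the 10 members, and DETC-like cells had the highest mean level of the other, Prf1. To ask which lymphoid cells carry the programme, UMIs were summed per library and type, and types were compared within the 4 libraries in edgeR (quasi-likelihood F-test, blocked by library). All 10 members were higher in NK-like cells than in the mean of the 6 other lymphoid types at an adjusted p under 0.05, against 12.3% of all 9022 genes tested, and none was lower, against 9.10%. The median log2 difference was 4.08 over the members and 0.0044 over all genes. Gzma showed the largest difference, with 8.47 on the log2 scale (SE 0.33, adjusted p = 4.6e-18), and Gzmb the smallest, with 2.23 (SE 0.36, adjusted p = 2.4e-05). The count of 10 was kept under every alternative of barcode filter, gate, scaling, tool and left-out library that was run. In the single pairs used below, 5.07% of all genes were higher in NK-like than in CD8 αβ T-like cells, 19.3% than in DETC-like cells and 12.2% than in ILC2-like cells.

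**Figure D1:**
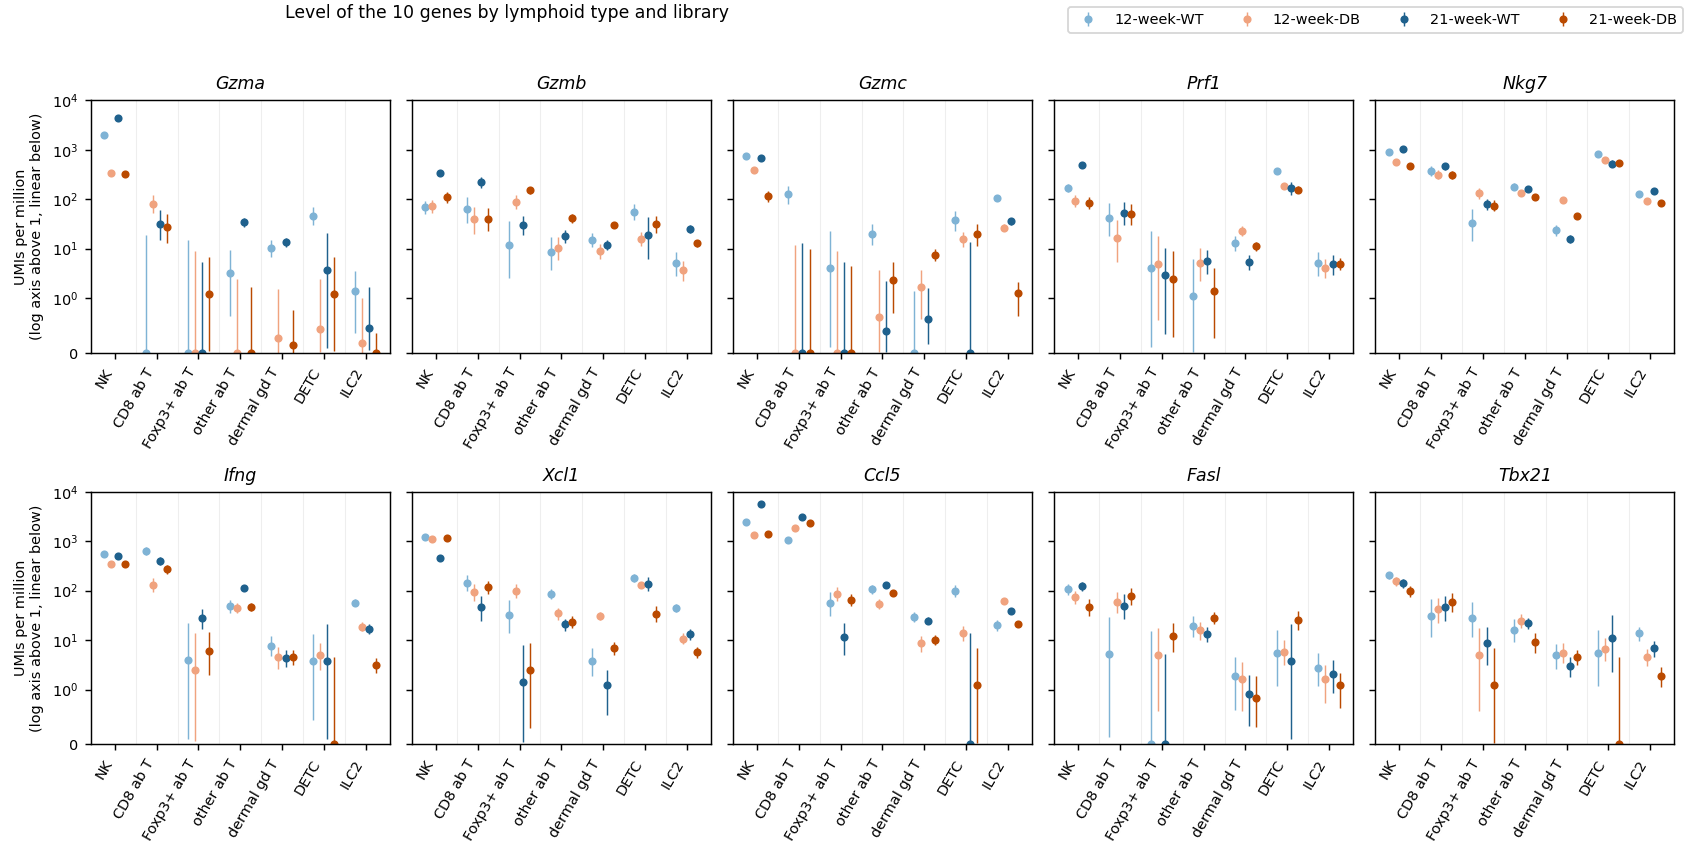
CPM of each of the 10 genes (y axis, logarithmic above 1 and linear below) in the 7 lymphoid types (x axis), with 1 point per library and exact 95% Poisson intervals for counting error. Gzma of NK-like barcodes lies between 326 and 4296, above every other type in all 4 libraries. For Prf1 the ranges of DETC-like and NK-like barcodes over the libraries overlap. For Ccl5 and Ifng those of CD8 αβ T-like and NK-like barcodes overlap.

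The granule proteases differed in how closely they followed NK-like cells. Gzma had 2003, 344, 4296 and 326 CPM in NK-like barcodes and 0, 81.0, 32.1 and 26.8 in CD8 αβ T-like barcodes, the next in order (log2 difference 4.85, SE 0.59, adjusted p = 7.4e-07, edgeR). Foxp3+ αβ T-like barcodes held 0 Gzma UMIs in the first 3 libraries, which allows up to 12.1, 7.45 and 4.31 CPM there. NK-like barcodes thus stood apart in every library, and they held 83.8%, 54.9%, 83.6% and 87.3% of all Gzma UMIs. Gzmc had 759, 398, 695 and 115 CPM in NK-like barcodes and 104, 26.3, 35.8 and 1.26 in ILC2-like barcodes, the next in order (4.0, SE 0.53, adjusted p = 9.4e-07). This protease was carried by few cells: 1 barcode held 38.6%, 34.6%, 40.8% and 22.1% of the NK-like Gzmc UMIs, and 53.1%, 91.0%, 54.1% and 46.2% of the ILC2-like ones. Gzmb, the main caspase-activating granzyme, had 70.2, 71.6, 339 and 108 CPM in NK-like barcodes, 62.4, 38.9, 221 and 40.2 in CD8 αβ T-like barcodes and 12.1, 89.4, 30.2 and 151 in Foxp3+ αβ T-like barcodes. These 3 types overlapped. Neither NK-like against CD8 αβ T-like (adjusted p = 0.63, edgeR) nor CD8 αβ T-like against Foxp3+ αβ T-like (adjusted p = 0.72) differed beyond the spread left after the library block.

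Prf1 and Nkg7, which belong to the lytic granule itself, were high in both NK-like and DETC-like cells. Prf1 had 167, 92.5, 500 and 84.5 CPM in NK-like barcodes and 374, 181, 168 and 157 in DETC-like barcodes. The DETC-like level was the higher of the pair in all libraries except 21-week-WT, and the difference did not pass the test (log2 0.19, SE 0.36, adjusted p = 0.73). Both lay above CD8 αβ T-like barcodes, with 41.6, 16.2, 53.4 and 50.9 (NK-like against CD8 αβ T-like 2.07, SE 0.53, adjusted p = 0.0088). Nkg7 had 912, 562, 1046 and 460 in NK-like barcodes, 803, 614, 522 and 528 in DETC-like barcodes and 369, 314, 463 and 305 in CD8 αβ T-like barcodes, and these neighbours did not differ beyond their spread (adjusted p = 0.58 and 0.17). CD8 αβ T-like barcodes were above other αβ T-like barcodes in Nkg7 (1.51, SE 0.35, adjusted p = 0.0047), which had 178, 134, 163 and 110.

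Ifng and Ccl5 were high in both NK-like and CD8 αβ T-like cells, while Xcl1 and Tbx21 were higher in NK-like cells. Ifng had 557, 347, 509 and 351 CPM in NK-like barcodes and 624, 133, 402 and 270 in CD8 αβ T-like barcodes (log2 0.21, SE 0.34, adjusted p = 0.79). Ccl5, a chemokine that attracts leukocytes, had 2442, 1355, 5768 and 1394 in NK-like barcodes and 1076, 1868, 3149 and 2292 in CD8 αβ T-like barcodes (0.04, SE 0.44, adjusted p = 0.98). For both genes the next type was other αβ T-like, lower by 2.52 for Ifng (SE 0.37, adjusted p = 2.3e-05) and by 4.70 for Ccl5 (SE 0.51, adjusted p = 6.3e-07). Xcl1, which attracts Xcr1-bearing dendritic cells, had 1191, 1131, 467 and 1142 in NK-like barcodes and 180, 129, 138 and 34.3 in DETC-like barcodes, the next in order (3.25, SE 0.49, adjusted p = 2.6e-06), and 146, 93.9, 46.3 and 118 in CD8 αβ T-like barcodes (3.13, SE 0.53, adjusted p = 0.00011). Fasl, which triggers death through Fas, had 106, 73.3, 122 and 45.6 in NK-like barcodes and 5.20, 58.3, 49.9 and 77.7 in CD8 αβ T-like barcodes, and this pair did not differ beyond its spread (adjusted p = 0.44). Tbx21 had 204, 155, 142 and 96.3 in NK-like barcodes and 31.2, 42.1, 46.3 and 58.9 in CD8 αβ T-like barcodes, a difference of 1.40 (SE 0.36, adjusted p = 0.0095).

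T cell types divided the programme differently. CD8 αβ T-like cells were higher than other αβ T-like cells in 7 of the 10 members (5.07% of all genes were higher) and lower in none (4% were lower). The 7 were Ccl5 (4.70), Prf1 (3.72), Ifng (2.52), Gzmb (2.28), Fasl (1.63), Tbx21 (1.60) and Nkg7 (1.51), all log2 differences. Gzma missed the threshold (2.55, adjusted p = 0.069), and Gzmc and Xcl1 did so too. CD8 αβ T-like sums rest on 21, 40, 33 and 45 barcodes. The 7 calls became 3 when each barcode was named by its highest marker score and 4 without the library block. DETC-like cells were higher than dermal γδ T-like cells in 5 members, in a contrast in which 26.2% of all genes were higher and 26.3% lower: Prf1 (4.15), Nkg7 (3.86), Xcl1 (3.46), Fasl (3.17) and Gzmc (2.42, adjusted p = 0.043). None was lower. Ifng was low in both γδ types, with 3.72, 4.89, 3.73 and 0 CPM in DETC-like and 7.64, 4.44, 4.31 and 4.51 in dermal γδ T-like barcodes. Against NK-like cells, DETC-like cells did not differ beyond the spread in Prf1 and Nkg7 (above) and were lower in the other 8 members, from 2.10 on the log2 scale for Gzmb (adjusted p = 0.003) to 6.89 for Gzma (adjusted p = 9.2e-11, edgeR). Naming barcodes by their highest marker score gave 9 members called between the 2 γδ types in place of 5, and Ifng turned from -0.22 to 3.63 in that contrast.

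Most NK-like barcodes held a UMI of the programme. At least 1 member was detected in all but 0, 1, 1 and 2 NK-like barcodes and in all but 4, 18, 1 and 20 of the 96, 378, 41 and 155 DETC-like barcodes. Nkg7 was detected in 95.1%, 83.7%, 95.9% and 86.0% of NK-like barcodes, against 1.70%, 2.28%, 3.22% and 2.07% of macrophage-like barcodes, which should lack it and were deeper (median 8983.5, 10450, 10527 and 8965.5 UMIs). In macrophage-like barcodes the share with a UMI stayed at or below 5.13% for every member and library. With each barcode thinned to 1000 UMIs, Nkg7 was detected in 58.8%, 43.5%, 62.5% and 34.9% of NK-like barcodes. Prf1 was detected in 75.0%, 54.2%, 63.4% and 47.7% of DETC-like barcodes.

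Between genotypes, most of the programme had lower levels over the DB NK-like barcodes, with more members past 2-fold at 21 than at 12 weeks. The makeup of this gate was not the same in each library. An Eomes UMI was found in 54.9%, 26.1%, 59.5% and 15.1% of its barcodes, and the part of this in the ratios was not tested. At 21 weeks 7 of the 10 members were at least 2-fold lower in DB than in WT, against 6.67% of the 3704 genes compared, and 1 was at least 2-fold higher, against 5.24%. At 12 weeks 1 member was at least 2-fold lower, against 1.24% of 3715 genes, and none was 2-fold higher, against 1.83%. The median log2 ratio of all genes compared was 0.057 at 12 weeks and -0.00073 at 21 weeks. A gene entered with at least 50 UMIs in the 2 libraries together and at least 20 CPM in the higher. At 12 weeks 6 members passed 1.5-fold, and 4 passed 2-fold when at most 5% mitochondrial UMIs were allowed.

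**Figure D2:**
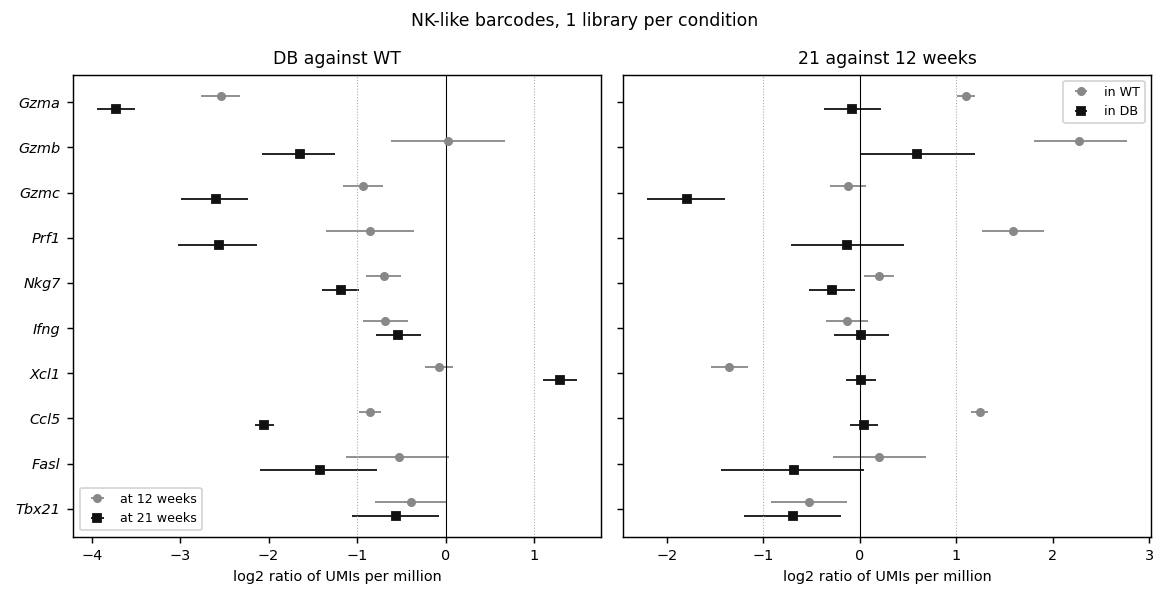
Log2 ratios of CPM in NK-like barcodes (x axis) for the 10 genes (y axis), DB against WT at each age on the left and 21 against 12 weeks in each genotype on the right, with exact 95% intervals for counting error and dotted lines at 2-fold. At 21 weeks Gzma, Gzmc, Prf1 and Ccl5 lie more than 2 log2 units below 0 on the left and Xcl1 lies above 1, and on the right the WT ratios are spread more widely than the DB ratios.

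Among the proteases, Gzma separated WT from DB most. From the levels given above (2003, 344, 4296 and 326), it was 5.82-fold lower in DB at 12 weeks (5.01 to 6.80) and 13.2-fold lower at 21 weeks (11.4 to 15.3). Both WT libraries were above both DB libraries. Detection moved with the level: a Gzma UMI was found in 49.0%, 25%, 74.4% and 12.8% of NK-like barcodes, and in 38.2%, 20.7%, 70.0% and 9.30% after thinning to 1000 UMIs. Macrophage-like barcodes had 1.29%, 0.0669%, 1.61% and 0.142%. Gzmb (70.2, 71.6, 339 and 108) had a ratio of 1.02 at 12 weeks (0.652 to 1.59) and was 3.14-fold lower in DB at 21 weeks (2.37 to 4.2), where 21-week-WT stood above the other libraries. Gzmc (759, 398, 695 and 115) was 1.91-fold lower at 12 weeks (1.63 to 2.24) and 6.05-fold lower at 21 weeks (4.69 to 7.92). Its share of barcodes went the other way, 13.7%, 19.6%, 6.61% and 19.8%, so WT had more UMIs in fewer barcodes. The Gzmc value at 12 weeks moved with the filters, from a log2 ratio of -0.93 to -2.05 with at most 5% mitochondrial UMIs and to -0.19 after Scrublet removal.

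Prf1 and Nkg7 had the same order of genotypes. Prf1 (167, 92.5, 500 and 84.5) was 1.80-fold lower in DB at 12 weeks (1.29 to 2.56) and 5.92-fold lower at 21 weeks (4.39 to 8.13), and a Prf1 UMI was found in 41.2%, 33.7%, 68.6% and 34.9% of the barcodes. Nkg7 (912, 562, 1046 and 460) was 1.62-fold lower at 12 weeks (1.41 to 1.86) and 2.28-fold lower at 21 weeks (1.98 to 2.63). Both WT libraries again lay above both DB libraries for each gene. Barcodes with a UMI of Gzma and of Prf1 numbered 30 of 102, 7 of 92, 72 of 121 and 4 of 86.

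The secreted members split. Ifng (557, 347, 509 and 351) was 1.60-fold lower in DB at 12 weeks (1.34 to 1.91) and 1.45-fold lower at 21 weeks (1.22 to 1.73), which stays under 2-fold at both ages. Ccl5 (2442, 1355, 5768 and 1394) was 1.80-fold lower at 12 weeks (1.65 to 1.97) and 4.14-fold lower at 21 weeks (3.84 to 4.47). Xcl1 (1191, 1131, 467 and 1142) was the exception, with a ratio of 0.950 at 12 weeks (0.854 to 1.06) and a 2.45-fold higher level in DB at 21 weeks (2.14 to 2.80). Here 21-week-WT was the low library and the other 3 lay close together. An Xcl1 UMI was found in 80.4%, 65.2%, 38.0% and 65.1% of NK-like barcodes, and in 37.3%, 46.7%, 21.7% and 39.5% after thinning.

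Fasl was past 2-fold at 21 weeks, and the ratios of Tbx21 stayed under 2-fold at both ages. Fasl (106, 73.3, 122 and 45.6) was 1.45-fold lower in DB at 12 weeks (0.970 to 2.18), an interval that includes 1, and 2.67-fold lower at 21 weeks (1.71 to 4.28), on 84 and 27 UMIs. Tbx21 (204, 155, 142 and 96.3) was 1.31-fold lower at 12 weeks (0.996 to 1.74) and 1.47-fold lower at 21 weeks (1.05 to 2.08). At 21 weeks the ratio of the lineage factor was closer to 1 than those of the 5 granule genes.

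Between ages, 5 members were past 2-fold in WT and 1 in DB, or 3 and 2 when barcodes were named by their highest marker score. In WT, 4 members were at least 2-fold higher at 21 than at 12 weeks, against 1.62% of 3836 genes: Gzmb by 4.83-fold (3.5 to 6.81), Prf1 by 3.0-fold (2.41 to 3.76), Ccl5 by 2.36-fold (2.23 to 2.51) and Gzma by 2.14-fold (2.01 to 2.29). Xcl1 was 2.55-fold lower (2.24 to 2.92), against 2.82% of genes lower. In DB, Gzmc was 3.47-fold lower at 21 weeks (2.63 to 4.61), against 6.24% of 3592 genes, and no member was 2-fold higher, against 2.42%. Over the whole gate Gzma (344 and 326), Xcl1 (1131 and 1142), Ccl5 (1355 and 1394) and Ifng (347 and 351) were nearly level between the DB libraries. With the barcodes split by an Eomes UMI, the DB ratio of 21 to 12 weeks was 1.78 with and 0.561 without for Gzma. It was 0.660 and 1.05 for Xcl1, 1.01 and 1.15 for Ccl5, and 0.506 and 1.09 for Ifng. The comparisons between ages share libraries with those between genotypes, so 21-week-WT enters 2 of them.

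Eomes, like Gzma, had a lower share of positive barcodes in the DB library of each age. An Eomes UMI was found in 54.9% (44.7 to 64.8), 26.1% (17.5 to 36.3), 59.5% (50.2 to 68.3) and 15.1% (8.30 to 24.5) of NK-like barcodes. Eomes is a gate gene, and the split of the barcodes by it was chosen after the data were seen. Among barcodes with Eomes, Gzma had 3358, 853, 6161 and 1520 CPM and was detected in 76.8%, 70.8%, 93.1% and 53.8% of 56, 24, 72 and 13 barcodes. Among those without, it had 676, 189, 1828 and 106 and was detected in 15.2%, 8.82%, 46.9% and 5.48%. Barcodes with Eomes had the higher level in each library, and DB was the lower genotype in both subsets. The DB level was 3.94-fold lower with Eomes and 3.58-fold lower without at 12 weeks, and 4.05-fold and 17.2-fold lower at 21 weeks.

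**Figure D3:**
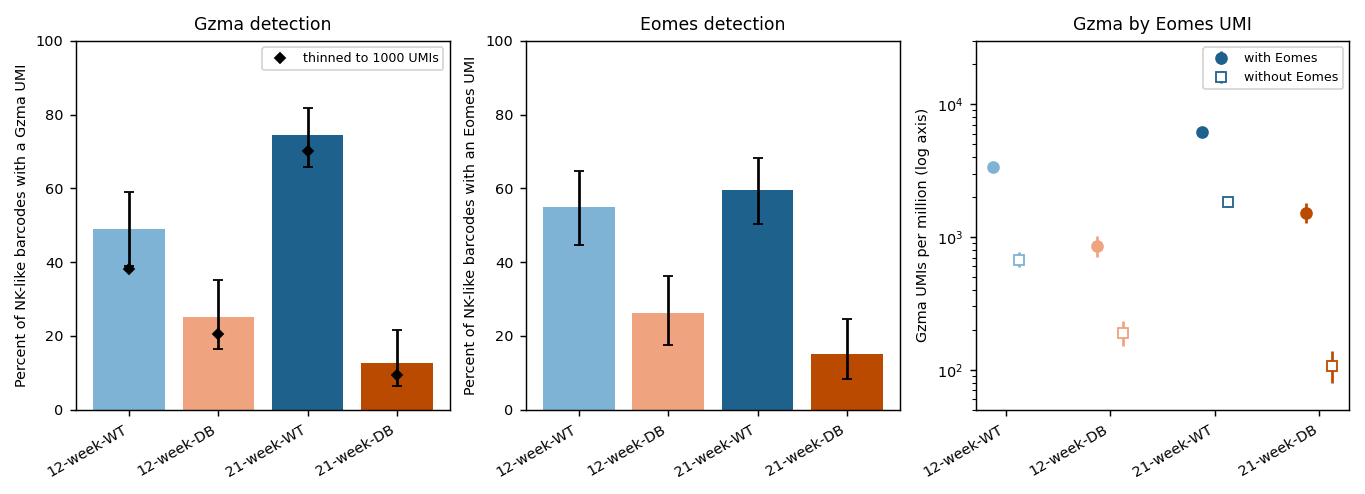
Percent of NK-like barcodes with a Gzma UMI (left, bars, with diamonds after thinning to 1000 UMIs) and with an Eomes UMI (middle) in the 4 libraries, with exact 95% binomial intervals, and Gzma CPM on a logarithmic axis in NK-like barcodes with (filled circles) and without (open squares) an Eomes UMI, with exact 95% Poisson intervals. Both shares are lower in the DB library of each age, and within either subset the DB level lies below the WT level.

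The other members differed between the subsets in their own ways. Prf1 was 4.11-fold lower in DB at 12 weeks among barcodes with Eomes (1.98 to 9.84), on 78 and 8 UMIs, but had a ratio of 1.15 among those without (0.702 to 1.89). At 21 weeks it was 4.69-fold and 3.86-fold lower in the 2 subsets. Ccl5 was 1.61-fold lower with Eomes and 1.14-fold lower without at 12 weeks, the latter with an interval of 0.996 to 1.31, and 3.31-fold and 2.71-fold lower at 21 weeks. Xcl1 was higher in DB at 21 weeks in both subsets, by 1.65-fold and 2.23-fold. Fasl at 21 weeks had 64 UMIs in WT and 1 in DB among barcodes with Eomes, and a ratio of 0.773 without (0.415 to 1.46), an interval that includes 1. Ifng at 12 weeks had a DB to WT ratio of 1.20 with Eomes (0.813 to 1.75) and 0.423 without (0.345 to 0.517), and at 21 weeks 0.342 and 0.700. Barcodes without Eomes held 463 of 487, 197 of 228, 479 of 480 and 68 of 68 of the NK-like Gzmc UMIs. These barcodes numbered 46, 68, 49 and 73, against 56, 24, 72 and 13 with Eomes, so they were most of the gate in DB. Gzmc was detected in 23.9%, 23.5%, 14.3% and 23.3% of barcodes without Eomes and in 5.36%, 8.33%, 1.39% and 0% of those with it. The intervals of these shares overlapped in each library.

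Outside the NK-like gate, Gzmb was higher in DB than in WT at 21 weeks in several cell types, but not in CD8 αβ T-like or ILC2-like cells. In Foxp3+ αβ T-like cells (40, 66, 96 and 139 barcodes), which by their marker are regulatory T-like, Gzmb had 12.1, 89.4, 30.2 and 151 CPM from 3, 36, 21 and 124 UMIs. A UMI was found in 7.50%, 18.2%, 13.5% and 36.7% of the barcodes. Both DB libraries lay above both WT libraries, with a ratio of 7.38 at 12 weeks (2.33 to 37.4), which rests on 3 WT UMIs and is under the minimum of 50 UMIs, and of 5.01 at 21 weeks (3.14 to 8.39). At 21 weeks 3.36% of the genes compared in this type were 2-fold higher. At 21 weeks Gzmb was likewise higher in DB among other αβ T-like cells (8.70, 10.4, 17.9 and 41.8, 2.34-fold, 1.62 to 3.42) and dermal γδ T-like cells (15.3, 8.88, 11.8 and 30.3, 2.56-fold, 1.96 to 3.36). Over all genes compared, 2.59% and 2.64% were 2-fold higher in these types. In CD8 αβ T-like cells the order was that of NK-like cells, with 62.4, 38.9, 221 and 40.2 and a 5.50-fold lower level in 21-week-DB (3.09 to 10.4), on 62 and 15 UMIs, against 5.5% of genes lower. Xcl1 in the same cells (146, 93.9, 46.3 and 118) was 2.54-fold higher in 21-week-DB (1.35 to 5.15), against 3.94% of genes higher. The level went the same way in NK-like cells. An Xcl1 UMI was found in 7 of 33 CD8 αβ T-like barcodes of 21-week-WT and 10 of 45 of 21-week-DB. In NK-like cells these numbers were 46 of 121 and 56 of 86.

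Mast cell/basophil-like barcodes, which were measured beside the lymphoid types, held 12.9%, 18.3%, 14.2% and 47.7% of all Gzmb UMIs. Mast cells store their own proteases in granules and can contain granzyme B. The gate held 322, 292, 213 and 1270 barcodes with a median of 2052, 1587, 1772 and 1426 UMIs, and Gzmb had 51.5, 128, 273 and 404 CPM. In 21-week-WT, 76 of the 131 UMIs lay in 5 barcodes with the basophil protease Mcpt8, so the level was also taken from barcodes with at least 2 UMIs of the mast cell proteases Cma1 and Mcpt4 and at most 1 of Mcpt8. There Gzmb had 52.3, 128, 126 and 405 CPM and was detected in 4.39%, 7.88%, 6.31% and 17.6% of 319, 292, 206 and 1267 barcodes. It was 2.44-fold higher in DB at 12 weeks (1.66 to 3.65) and 3.21-fold higher at 21 weeks (2.44 to 4.30), and higher at 21 than at 12 weeks by 2.41-fold in WT and 3.17-fold in DB. In the whole gate Gzmb was 2.48-fold higher in DB at 12 weeks and 1.48-fold at 21 weeks, where 0.878% and 5.54% of genes were at least 2-fold higher. Between ages 2.39% of genes were 2-fold higher at 21 weeks in WT and 4.58% in DB. The DB library of 21 weeks was thus the highest and 12-week-WT the lowest. Prf1, the pore-forming protein, had 0, 3, 0 and 5 UMIs in this gate.

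**Figure D4:**
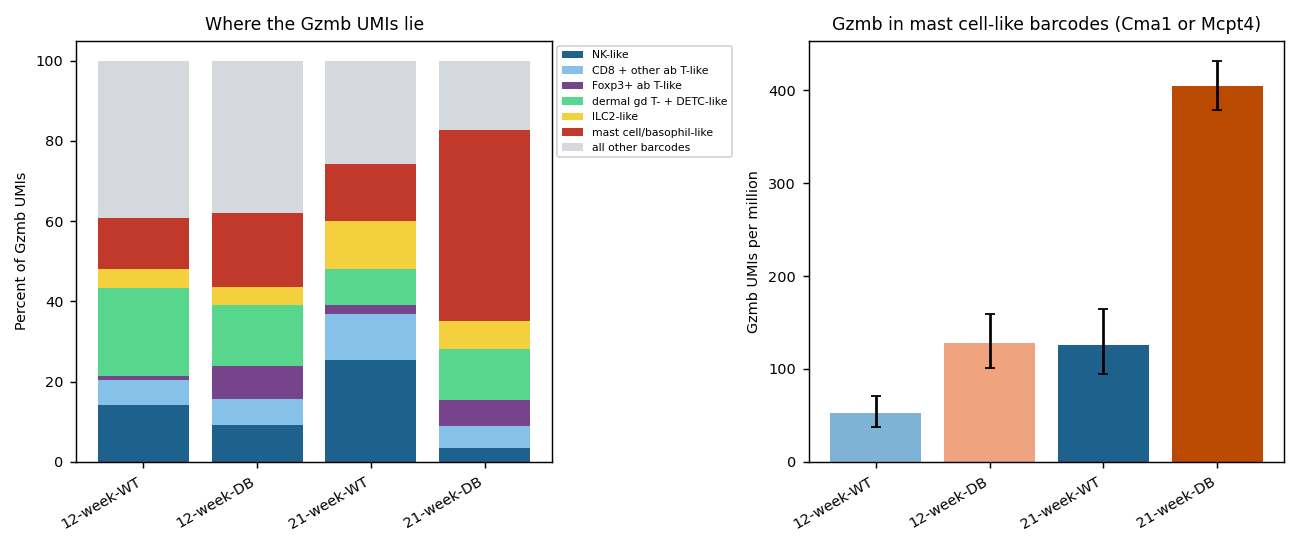
Percent of all Gzmb UMIs of each library that lie in each group of barcodes (left, stacked bars), and Gzmb CPM in barcodes with at least 2 UMIs of Cma1 and Mcpt4 and at most 1 of Mcpt8 (right, bars with exact 95% Poisson intervals). NK-like barcodes hold 25.3% of the Gzmb UMIs in 21-week-WT and 3.35% in 21-week-DB, while mast cell/basophil-like barcodes hold 14.2% and 47.7%.

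In DETC-like cells Prf1 was lower in DB than in WT at 12 weeks and close to it at 21 weeks. Prf1 (374, 181, 168 and 157) was 2.07-fold lower in DB at 12 weeks (1.74 to 2.46) and had a ratio of 0.933 at 21 weeks (0.660 to 1.34). The highest library was 12-week-WT, and in WT the level was 2.23-fold lower at 21 than at 12 weeks (1.60 to 3.15), against 4.4% of genes lower. Xcl1 (180, 129, 138 and 34.3) was 4.03-fold lower in DB at 21 weeks (2.40 to 6.83), the opposite order of NK-like cells, against 4.74% of genes lower. This ratio rests on few barcodes, as an Xcl1 UMI was found in 7 of 41 in 21-week-WT and 11 of 155 in 21-week-DB. At 12 weeks 4 of the 6 members compared in DETC-like cells were at least 2-fold lower in DB, against 1.06% of genes. The other 3 were Ccl5 (100, 13.8, 0 and 1.22), Gzmb (55.8, 16.0, 18.7 and 31.8) and Gzmc (37.2, 15.6, 0 and 19.6), and 1 barcode held 90.7% of the Ccl5, 60% of the Gzmb and 60% of the Gzmc UMIs of 12-week-WT.

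Dermal γδ T-like cells had low levels of the programme, and their mean Nkg7 level (44.65 CPM) was the lowest of the 7 types. Nkg7 still differed between genotypes there. It had 23.7, 94.4, 15.7 and 44.8 CPM and was detected in 4.67%, 21.9%, 4.80% and 14.4% of 364, 530, 791 and 1149 barcodes. Both DB libraries lay above both WT libraries, 3.98-fold at 12 weeks (3.03 to 5.31) and 2.86-fold at 21 weeks (2.28 to 3.61), against 0.953% and 2.64% of genes that were 2-fold higher. Xcl1 (3.82, 31.4, 1.23 and 6.77) was 8.21-fold higher in DB at 12 weeks (4.30 to 17.6), on 10 and 113 UMIs. Ccl5 (29.4, 8.61, 24.8 and 10.1) was 3.42-fold lower at 12 weeks (2.23 to 5.37) and 2.44-fold lower at 21 weeks (1.84 to 3.27), against 0.406% and 2.17% of genes lower. The dermal gate allows up to 1 UMI of Tcrg-V5 and Fermt2, and DETC-like barcodes numbered 96, 378, 41 and 155. The part of DETC-like cells in these values was not tested.

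ILC2-like cells, which are not cytotoxic, held few member UMIs per barcode. Nkg7 (125, 92.2, 144 and 82.9) was the most widely detected, in 36.8%, 28.2%, 34.1% and 27.5% of 375, 797, 669 and 1720 barcodes, and stayed within 2-fold between genotypes. At 12 weeks Gzmc, Ifng (56.8, 18.7, 16.7 and 3.10) and Xcl1 (44.6, 10.7, 13 and 5.71) were 3.95-fold, 3.04-fold and 4.16-fold lower in DB, against 3.02% of genes lower. Ccl5 (19.7, 62.2, 38.8 and 21.4) was 3.15-fold higher at that age (2.38 to 4.24), against 0.686% of genes higher. At 21 weeks Gzmc was 28.4-fold lower in DB (16.2 to 54.6), against 3.53% of genes lower. The Gzmc and Ifng sums of ILC2-like cells rest on few barcodes, 1 of which held 69.5% of the Ifng UMIs of 12-week-WT, and the Gzmc ratio at 12 weeks turned to a log2 value of 1.18 with at most 5% mitochondrial UMIs.

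αβ T-like cells differed between genotypes in several members. In CD8 αβ T-like cells Ifng (624, 133, 402 and 270) was 4.70-fold lower in DB at 12 weeks (3.27 to 6.87), against 2.45% of genes lower, and 1 barcode held 69.2% of the UMIs of 12-week-WT. In other αβ T-like cells Ifng (47.9, 45.0, 114 and 47.2) was 2.42-fold lower in DB at 21 weeks (1.93 to 3.06), against 5.77% of genes lower. Here 21-week-WT was the high library, as it was for Gzma and Prf1 in NK-like cells, and an Ifng UMI was found in 10.6%, 12.9%, 19.3% and 8.67% of the barcodes. Tbx21 in the same type (16.3, 24.8, 21.8 and 9.08) was 2.40-fold lower in DB at 21 weeks (1.42 to 4.23), and Fasl (19.6, 15.7, 13.1 and 28.2) was 2.15-fold higher (1.39 to 3.39). Gzma in other αβ T-like cells had 3, 0, 86 and 0 UMIs, and 1 barcode held 95.3% of the 86 UMIs of 21-week-WT. Xcl1 there had 85.9, 34.6, 20.6 and 23.6 CPM, highest in 12-week-WT. Ccl5 in Foxp3+ αβ T-like cells (56.6, 86.9, 11.5 and 65.9) was 5.73-fold higher in DB at 21 weeks (2.71 to 13.9), on 8 and 54 UMIs. Ccl5 in MHC class II-high barcodes, which are outside the lymphoid gates, had 16.5, 28.1, 37.6 and 196 CPM and was 5.21-fold higher in DB at 21 weeks (4.76 to 5.69), against 4.42% of genes higher. That gate held 1056, 925, 1824 and 406 barcodes and was not split by cell type. The part of its makeup in the ratio was not tested.

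Over all gated lymphoid cells the levels combine what each cell type carries with how many of each there were, and NK-like cells were a smaller share of them in DB. Gzma had 166, 15.9, 205 and 9.27 CPM over all lymphoid cells, with a DB to WT ratio of 0.0956 at 12 weeks and 0.0451 at 21 weeks. With each type of the DB library set to its share of UMIs in WT, the ratios were 0.177 and 0.0745. This holds the shares of the 7 gated types equal and not the makeup within a type. Prf1 (45.4, 40.8, 31.1 and 14.9) had ratios of 0.901 and 0.480, and 0.648 and 0.448 with WT shares. At 12 weeks the DB library had 378 DETC-like barcodes against 96 in WT, and the Prf1 ratio was the lower of the pair when shares were held equal. Xcl1 (138, 87.0, 31.9 and 40.9) had ratios of 0.630 and 1.28, and 0.880 and 1.96 with WT shares. Of the 8 members compared over all lymphoid cells at each age, 3 were at least 2-fold lower in DB at 12 weeks (0.662% of genes) and 5 at 21 weeks (2.78%).

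Companion genes were grouped in lists by their role, with earlier results of these data known. In NK-like cells against the other lymphoid types, 12.3% of all genes tested were higher and 9.10% lower. Of 15 tested regulators and cytokine receptors of type 1 lymphocytes, 10 were higher in NK-like cells than in the other lymphoid types and none was lower (median log2 1.05), led by Il12rb2 (2.94), Stat4 (2.50) and Cxcr3 (2.23). Of 14 tested activating and inhibitory receptors 13 were higher (median 3.21), led by Klra7 (7.37) and Cd160 (4.54), although Klra7 and the Klrc genes have near-identical copies. Of 13 tested genes of granules and killing 4 were higher and 1 lower (median 0.01): Serpinb9 (4.11), which inhibits granzyme B, Serpinb6b (3.36), Ctsw (2.88), Tnfsf10 (1.80) and Fas (-1.33). The chemokines Ccl4 (3.31) and Ccl3 (3.21) were higher and Il10 (-4.32) was lower among 7 other type 1 products, and of 4 tested type 2 and type 3 products only Il17a (-3.34) passed, as lower.

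Between genotypes at 21 weeks the companions in NK-like cells were described by the same 2-fold rule. Of 12 regulators and receptors 7 were lower in DB and 1 higher (median log2 ratio -1.18), led by Zeb2 (-2.88) and Prdm1 (-2.78), 2 factors of late NK cell maturation, then Il12rb2 (-1.43), Il18rap (-1.32) and Il2rb (-1.24). The higher gene was Hopx (1.06), named as the exception after its value was seen. Ccl3 (-2.26) and Ccl4 (-2.16) were lower among 4 other products. The surface receptors moved less, with Klra7 lower (-1.90) and Cd160 higher (2.24) among 11 (median -0.47). Of 10 granule and killing genes only Gzmf passed (-4.58, median 0.12), a close relative of Gzmc. At 12 weeks, where 1.24% of all genes compared were lower and 1.83% higher, 2 of 13 regulators were lower, Il12rb2 (-1.39) and Prdm1 (-1.22). Among other products Ccl4 (-2.22) and Tnf (-1.29) were lower. Of 8 granule and killing genes Rab27a was higher (1.34) and Ctsc lower (-1.24), and of 11 surface receptors Klra7 was lower (-1.08).

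The genes whose pattern was most like each member were ranked by Pearson's r of log2(CPM + 10) over the 28 sums of 4 libraries and 7 types, which share libraries and depth. Gzma was most like Klra3 (0.94), Prf1 like Klrd1 (0.94) and Klrc1 (0.93), Nkg7 like Ugcg (0.90) and Ctsw (0.88), and Gzmc like Itgax (0.92) and Sulf2 (0.90). Ifng was most like Ly6c2 (0.91), Xcl1 like Nrarp (0.92), Ccl5 like Epsti1 (0.94), Fasl like Tmsb10 (0.85) and Tbx21 like Arsb (0.93). For Gzmb the highest was Pde2a at 0.72, the lowest of the 10. Among the members themselves the closest was Ifng to Ccl5 (0.90).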

How the data were processed

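The files held UMI counts per gene and cell barcode that the authors made with Cell Ranger from 10x 3' v3 libraries aligned to mm10 and deposited without normalization. The headers name version 5.0.0 for both 12-week files and 6.0.0 for both 21-week files. Total counts were 47851794 UMIs for WT and 57025899 for DB at 12 weeks, and 69626521 for WT and 54989592 for DB at 21 weeks.

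Barcodes under 200 genes or over 10% mitochondrial UMIs were dropped. A barcode over a limit for macrophage, mast cell, B cell, MHC class II, neutrophil, stromal or keratinocyte genes was left out of the lymphoid gates, which also took the place of doublet removal. T-like barcodes had at least 2 Cd3 UMIs, αβ ones at least 2 of Trac and more Trac than Trdc, and γδ ones the reverse. DETC-like barcodes were γδ with at least 2 UMIs of Tcrg-V5 and Fermt2, and dermal ones had at most 1 of these and at least 1 UMI of a set of dermal markers that includes Cd163l1, Tcrg-V6 and Tcrg-V4. A list of receptors is not reported here. Foxp3+ barcodes had at least 1 Foxp3 UMI, and CD8 ones no Foxp3 and at least 2 UMIs of Cd8a and Cd8b1. NK-like barcodes had at most 1 Cd3 UMI, at least 1 of Ncr1, Klrb1c, Klre1, Klra8 and Eomes, and at least 2 with Txk added. ILC2-like barcodes had at most 1 Cd3 UMI and at least 3 of Il1rl1, Gata3, Hlf, Calca and Il13. No member was a marker. The members and lists were chosen with earlier results of these data known. Gate thresholds, the Eomes and Mcpt8 splits and the removal of shared barcodes were chosen after the data were seen.

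Levels (CPM) are UMIs per 1000000 UMIs of the same barcodes with exact Poisson intervals, ratios have conditional binomial intervals and shares Clopper-Pearson intervals, at 95%. A count of 0 allows up to 3 counts. Types were compared with edgeR 4.0.16 in R 4.3.3 on counts summed per library and type (at least 10 barcodes, filterByExpr, TMM, library as a block, quasi-likelihood test, Benjamini-Hochberg over 9022 genes, adjusted p under 0.05). P-values measure the spread that is left after library and type are fitted, over 4 libraries that differ in age and genotype. Tested on simulated counts of 8813 genes for NK-like against the other types, the fit recovered 25.26% of 2-fold and 91.4% of 4-fold changes with 3 false calls. The simulated types shared a mean profile and a fixed dispersion, with no library effect and changes in NK-like sums only. The rates therefore need not hold for the real counts. All members are named, and of each companion list at most 5 genes, those past the threshold with the largest change. Alternatives were a minimum of 500 genes, a maximum of 5% mitochondrial UMIs, Scrublet removal, naming by the highest marker score, a stricter gate, shared barcodes removed, RLE or library-total scaling, no filter on low counts, DESeq2 1.42.0, no library block, at least 20 barcodes per sum, each library left out, a denominator without mitochondrial and ribosomal genes, 1.5-fold, and thinning to 1000 UMIs.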

Additional observations from a re-analysis of the deposited data

Results flagged for a closer look

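Ccl5 went in opposite directions at the 2 ages in 2 lymphoid types, each with 1 library per condition, so the difference between ages was not tested. In CD8 αβ T-like cells it had 1076, 1868, 3149 and 2292 CPM in WT and DB at 12 weeks and WT and DB at 21 weeks, so that the log2 ratio of DB to WT was 0.80 at the younger and -0.46 at the older age. The sums rest on 21, 40, 33 and 45 barcodes, and 1 barcode held 39.6% of the Ccl5 UMIs of 12-week-WT. In ILC2-like cells it had 19.7, 62.2, 38.8 and 21.4, with 1.66 at the younger and -0.86 at the older age, and 57 of the 669 ILC2-like barcodes of 21-week-WT were also found in another library. The part of free RNA or of single barcodes in these values was not tested.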

How the results depend on the processing

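With 1 library per condition, counting error is the only error known for differences between genotypes and ages, and mouse, sort and library cannot be told apart from condition. Small gates (21 CD8 αβ T-like barcodes in 12-week-WT) and genes held by few barcodes limit the rest. The call of all 10 members as higher in NK-like cells was kept under every alternative run.

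Members past 2-fold in NK-like cells between genotypes at 12 weeks numbered 4 with at most 5% mitochondrial UMIs, 2 when named by the highest marker score and 6 at 1.5-fold, against 1. Between ages they numbered 3 by marker score against 5 in WT, and 2 by marker score and 4 at 1.5-fold against 1 in DB. Members called between DETC-like and dermal γδ T-like cells numbered 9 by marker score and 8 with no filter on low counts, against 5, and Ifng in this contrast turned from -0.22 to 3.63 by marker score. Members called between CD8 and other αβ T-like cells numbered 3 by marker score and 4 with no library block, against 7. Gzmc in ILC2-like cells turned to a log2 ratio of 1.18 between genotypes at 12 weeks and 0.95 between ages in WT with at most 5% mitochondrial UMIs. The share of 12-week-WT NK-like barcodes with a Gzma UMI was 38.2% after thinning, against 49.0%. The causes were not tested. With each library left out, the calls over all pairs of types ranged from 120 to 127, against 130. Of the recomputed values that answer a comparison, 11 moved and 153 kept their side. The 153 stayed within 1.5 times of the reported count or within the error of the share. Among the more detailed values recomputed, 848 stayed the same, 37 moved, 27 were weaker, 13 were stronger and 3 reversed.

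No paired analysis was possible because each group has only 1 library with replicate number 1, and the library block pairs cell types of the same library, not groups.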
